A study of Mus musculus with 4 samples.

Results

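Genes of B cells and plasma cells were followed in RNA of the mouse inferior vena cava. The set comprises 10 genes, chosen by name with earlier results of these data known, so their counts are descriptions and not tests. Each had 1 probe set that the platform annotation assigns to no other gene. Thus 10 of the 18820 genes with such a probe set are described. They fall into 6 genes of the B cell surface and of B cell receptor signalling (Ms4a1, Cd79a, Cd79b, Cr2, Fcer2a and Blnk) and 4 genes of antibody secretion and of the plasma cell (Mzb1, Jchain, Tnfrsf17 and Derl3).

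The study had 4 groups, each given by 1 array of RNA pooled from 4 mice: wild type after sham surgery or ligation, and Cd39-null after sham surgery or ligation. Mice were 8 to 10 weeks old, and both genotypes had been bred to C57BL/6J for at least 8 generations; the null mice lack CD39, the ectonucleotidase encoded by Entpd1. In ligated mice the vein was tied below the kidneys and collected after 48 h, whereas sham surgery exposed and dissected the vein without a tie. The labels allow either sex and either complete or partial ligation, and they do not give the time after sham surgery or state if the clot went into the RNA.

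The resting B cell recognises antigen through surface immunoglobulin, which signals through the paired chains CD79A and CD79B, and it carries the surface proteins CD20, CD21 and CD23. Once activated it can mature into a plasma cell, which largely shuts down the surface programme, enlarges its endoplasmic reticulum and secretes antibody. In the vein wall and the fat around it, B cells and plasma cells are a small minority of the cells, and lymphoid clusters in that fat can hold both.

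Entpd1 checks the genotype labels. On the log2 scale it stood at 7.11 (sham) and 6.17 (ligated) in wild type and at 4.16 (sham) and 6.14 (ligated) in Cd39-null. The last value goes against its label, so that library is named by its label below, and every direction that uses it rests on the label. Whether the probe set reads the deleted sequence was not examined. All 10 endothelial and all 8 smooth muscle markers were above background on the sham arrays. The background was taken as the 95th percentile of 1006 olfactory receptor probe sets, which was 2.94, 2.66, 2.97 and 2.68 log2 on the 4 arrays in the order above.

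Promoter sequences are shown for 3 genes because their windows hold letters that B cell and secretory regulators are known to read. RefSeq windows (GRCm38.p6, from 250 bases before to 50 after a gene start) were found for 7 of the 10 genes, with 9 windows in all; Ms4a1, Cd79b and Mzb1 were not matched. The 250 bases before the start are printed, 5′ to 3′ on the gene's strand. Capitals mark the octamer (ATTTGCAT, read by the Oct family) in Blnk, the ER stress response element (here on the opposite strand) in Derl3, and an E-box (CAGGTG) in Cd79a.
Blnk (chr19:40994222-40994471, strand -): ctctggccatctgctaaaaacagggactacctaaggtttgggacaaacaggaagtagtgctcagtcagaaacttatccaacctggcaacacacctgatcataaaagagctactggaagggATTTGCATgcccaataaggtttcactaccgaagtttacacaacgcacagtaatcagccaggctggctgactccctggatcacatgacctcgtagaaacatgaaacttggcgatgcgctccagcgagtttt
Derl3 (chr10:75893148-75893397, strand +): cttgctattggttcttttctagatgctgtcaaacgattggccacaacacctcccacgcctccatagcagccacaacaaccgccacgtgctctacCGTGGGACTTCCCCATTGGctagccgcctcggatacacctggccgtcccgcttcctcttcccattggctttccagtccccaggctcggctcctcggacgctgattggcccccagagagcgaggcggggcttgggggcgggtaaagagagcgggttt
Cd79a (chr7:24897247-24897496, strand +): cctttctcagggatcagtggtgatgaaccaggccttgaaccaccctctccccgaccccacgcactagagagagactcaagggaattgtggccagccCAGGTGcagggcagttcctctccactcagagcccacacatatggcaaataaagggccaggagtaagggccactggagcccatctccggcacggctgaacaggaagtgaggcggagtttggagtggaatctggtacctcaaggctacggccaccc
The octamer lay at bases -130 to -123 of Blnk, and 1.74% of the 32851 mouse windows hold it on either strand. The ER stress response element lay at -156 to -138 of Derl3, and 0.119% of windows hold it. The E-box lay at -154 to -149 of Cd79a; it was in 6 of the 9 windows, against 20.2% of all windows. The unfolded protein response element (TGACGTGG), an EBF1 palindrome and a PU.1 site (GAGGAAGT) were searched on both strands too and were in 0 of the 9 windows, against 0.676%, 0.904% and 3.2% of all. These matches describe letters only.

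**Figure D1:**
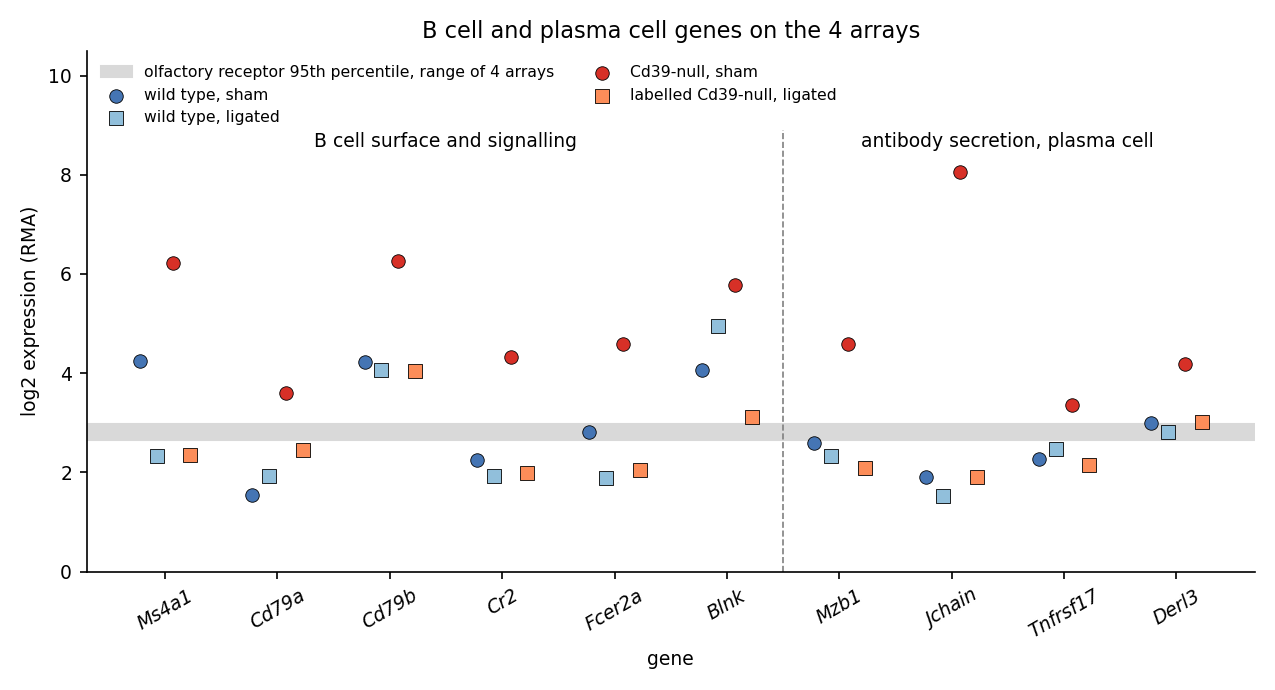
Log2 expression (vertical axis) of the 10 genes (horizontal axis) on the 4 arrays; each point is 1 array of pooled RNA, so there are no error bars, and the grey band spans the olfactory receptor background of the arrays (2.66 to 2.97). The red circle of Cd39-null, sham, is the highest point for each of the 10 genes, at 8.06 for Jchain.

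All 10 genes were highest on the Cd39-null, sham, array, where each lay above background. On the other arrays 4 genes (wild type, sham), 3 (wild type, ligated) and 3 (labelled Cd39-null, ligated) were above it. By measured values, the Cd39-null, sham, array was 2-fold or more above each of the others in 8 of the 10 genes. That rule was passed by 1.31% of the 14115 genes kept. Cd79a, Cr2, Fcer2a and Jchain were kept, by their mean level over the 4 arrays, only through this array. Their lead on it is therefore not independent of the filter. Without this filter on mean level, 1.07% of all 18820 genes passed. With values under background raised to it, 7 of the 10 genes passed, without Cd79a, Blnk and Tnfrsf17, and 1.23% of genes kept did. It was the highest array for 23.2% of genes kept. A pool was not repeated, so no difference between arrays has a replicate check, and in tissue RNA fewer cells of a type and less RNA per cell cannot be told apart.

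Among the B cell surface genes, Ms4a1, which encodes CD20, had log2 values of 4.24 (sham) and 2.33 (ligated) in wild type, 6.23 in Cd39-null sham veins and 2.34 on the ligated array labelled Cd39-null. Both sham arrays were above background and both ligated arrays below it, and no other member had that order. Cd79b, the beta signalling chain of the B cell receptor, had values of 4.23, 4.07, 6.26 and 4.05 in the same order. It was above background on every array, and apart from the Cd39-null, sham, value its levels lay within 0.18 log2. Cd79a, the alpha chain that pairs with it, had values of 1.54, 1.93, 3.59 and 2.45, with the 3 lower arrays all under background.

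Cr2 encodes the complement receptor CD21, which is carried by mature B cells and by follicular dendritic cells. Its log2 values were 2.25 (sham) and 1.93 (ligated) in wild type, 4.33 in Cd39-null sham veins and 1.99 on the ligated array labelled Cd39-null. Fcer2a encodes CD23, the low-affinity IgE receptor, and had values of 2.82, 1.89, 4.59 and 2.04 in this order. For both receptors only the Cd39-null, sham, value was above background, and it lay at least 2.62-fold above the other arrays for Cr2 and at least 3.13-fold for Fcer2a, with those arrays set at their background.

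Blnk encodes the adaptor that couples the kinase Syk to downstream enzymes, and besides B cells some myeloid cells use it. Its log2 values were 4.07 (sham) and 4.94 (ligated) in wild type, 5.78 in Cd39-null sham veins and 3.12 on the ligated array labelled Cd39-null. All 4 values were above background, and wild type, ligated, came second, 0.84 log2 below the highest. The lead of Cd39-null, sham, was thus 1.79-fold for Blnk, and for Cd79a, whose other arrays lay under background, it was at least 1.57-fold.

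Jchain encodes the joining chain that links units of polymeric IgM and IgA and is made by antibody-secreting cells. Its log2 values were 1.91 (sham) and 1.53 (ligated) in wild type, 8.06 in Cd39-null sham veins and 1.90 on the ligated array labelled Cd39-null. The measured difference between the sham arrays was 70.8-fold, and it is at least 34.7-fold when wild type, sham, is set at its background.

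Mzb1 encodes a chaperone of the endoplasmic reticulum that helps assemble and secrete IgM. It had log2 values of 2.60, 2.33, 4.59 and 2.10, in the same array order. Tnfrsf17 encodes BCMA, a survival receptor of plasma cells, and had values of 2.28, 2.46, 3.35 and 2.15. Both genes were above background on the Cd39-null, sham, array alone, and with the others set at background its lead was at least 3.13-fold for Mzb1 and at least 1.33-fold for Tnfrsf17. Derl3, a component of the degradation pathway for misfolded proteins of the endoplasmic reticulum, had values of 3.00, 2.80, 4.19 and 3.01. It was above background on all 4 arrays, and its 3 lower values lay within 0.21 log2. The wild-type values were close to background, which was 2.94 (sham) and 2.66 (ligated).

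The first comparison asked how the sham-operated vein differed between genotypes. By measured values all 10 genes were 2-fold or more higher in Cd39-null, sham, than in wild type, sham, as were 2.95% of genes kept. Without the filter on mean level, 2.35% of all genes were. The median log2 difference of the 10 genes was 1.99, against -0.07 over all genes kept. In 6 of the 10 genes the wild-type value lay under background, so the size of the difference is a bound there. With those values raised to background, 8 of the 10 genes and 2.59% of genes kept were at least 2-fold higher; the exceptions were Cd79a (at least 1.57-fold) and Tnfrsf17 (at least 1.33-fold). The 4 genes above background on both sham arrays differed by 2.04 (Cd79b), 1.99 (Ms4a1), 1.72 (Blnk) and 1.19 (Derl3) log2.

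Other genes known from B lymphocytes were read from a list. Of 19 measured, 18 were higher in Cd39-null, sham, than in wild type, sham, as were 43.3% of genes kept. At least 2-fold higher were 8 of the 19 (median of the list 0.90), against 2.95% of genes kept. Among them were the scaffold protein Bank1 (4.04 in wild type, sham, and 6.31 in Cd39-null, sham), the inhibitory receptor Cd22 (3.87 and 5.84), the Fc receptor-like gene Fcrl1 (3.20 and 5.11) and the B cell identity factor Pax5 (3.12 and 4.46). Of the 16 plasma cell and secretory genes measured, 14 were higher but 3 at least 2-fold, with a median of 0.66. The elongation factor Ell2 had a difference of 1.33 and the surface receptor Slamf7 of 1.75, while Sdc1, the plasma cell antigen syndecan-1 that epithelial and other cells also carry, was lower (-1.56). Many genes of this list serve secretion in any cell type.

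The 4 immunoglobulin constant region genes with a probe set of their own were all at least 2-fold higher in Cd39-null, sham, than in wild type, sham. Igha, the IgA heavy chain, had log2 values of 3.46 (sham) and 3.47 (ligated) in wild type, 8.27 in Cd39-null sham veins and 4.35 on the ligated array labelled Cd39-null. Igkc, the kappa light chain, had 2.93, 2.57, 7.84 and 2.52, and Ighg3, an IgG heavy chain, had 2.45, 2.49, 7.28 and 2.66. Ighm, the IgM heavy chain, had 3.37, 2.88, 5.02 and 2.93. For Igha, Ighg3 and Ighm the brightest of several probe sets is given, and probe sets of 1 gene disagreed in size. A dimmer Ighm probe set had 2.28, 2.03, 6.35 and 2.36, a wider lead, and a dimmer Ighg3 probe set had 1.33, 1.12, 1.88 and 1.27, all under background.

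Over all 38 probe sets annotated to immunoglobulin constant or variable genes, a group chosen after the values had been seen, the Cd39-null, sham, value was above background in 35 and the highest of the 4 in each of those 35. It was at least 2-fold above each other array in 31 with the others raised to their background. The remaining 3 probe sets were under background on that array, which gives no order. The median log2 value of all 38 was 2.48 (sham) and 2.16 (ligated) in wild type, 6.91 in Cd39-null sham veins and 2.39 on the ligated array labelled Cd39-null. The widest lead was that of the kappa variable gene Igkv10-96, at 9.22 against 2.42 on the next array. Variable genes resemble each other closely, so a probe set may read several of them, and these probe sets are not separate measurements of separate genes.

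**Figure D2:**
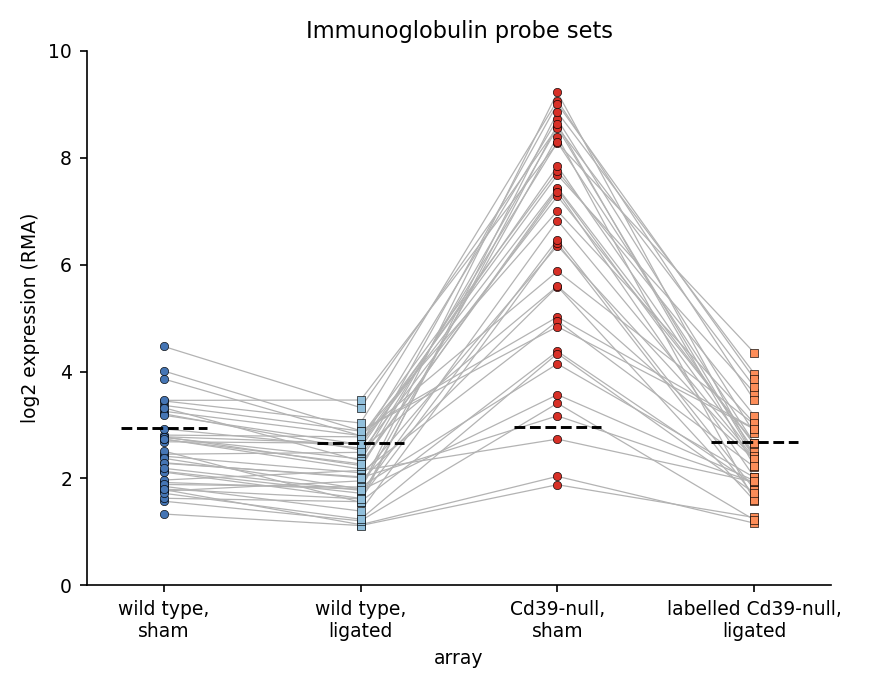
Log2 expression (vertical axis) of 38 immunoglobulin probe sets on the 4 arrays (horizontal axis); a grey line joins the values of 1 probe set, and the dashed bar is the olfactory receptor background of the array. The points of Cd39-null, sham, reach 9.22, with a median of 6.91, while the medians of the other arrays lie between 2.16 and 2.48.

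Markers of some other cell types differed between the sham arrays in the same direction as the B cell genes. Brown and white adipocyte markers were higher in Cd39-null, sham, than in wild type, sham, for 11 of 11 measured genes, 7 of them at least 2-fold, with Ucp1 at 9.71 against 4.14. The log2 of their summed signal was 10.4 (sham) and 10.2 (ligated) in wild type, 12.0 in Cd39-null sham veins and 9.76 on the ligated array labelled Cd39-null. T cell markers were higher for 10 of 11 genes, 5 at least 2-fold, with the T cell receptor chain Cd3d at 4.62 against 2.17, and log2 summed signals of 6.77, 6.50, 7.85 and 7.08. Neutrophil markers were higher for 8 of 11 genes, 5 at least 2-fold (median 0.92), with log2 summed signals of 10.3, 10.1, 11.4 and 12.1. Their signal was thus highest on the ligated array labelled Cd39-null, and Cd39-null, sham, was the highest array for 3 of the 11 genes. Smooth muscle markers (median -1.72, lower in 8 of 8) and endothelial markers (median -1.04, lower in 10 of 10) differed in the opposite direction. So did platelet markers (median -1.19, lower in 8 of 8).

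Lymph node stroma and follicular dendritic markers had no common direction between the sham arrays, with 3 of 7 measured genes higher in Cd39-null and a median of -0.06. The log2 of their summed signal was 8.42, 8.25, 9.14 and 7.87 in array order. Glycam1, a mucin of the specialised venules of lymph nodes, was at 6.61 in Cd39-null, sham, against 3.71 in wild type, sham, and Cxcl13, which attracts B cells, at 8.28 against 6.98. Madcam1 and Chst4, which are also made in such venules and are named for that reason, were at or under background on all 4 arrays. The part of adipose, T cell or lymphoid tissue content in the B cell differences was not tested.

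**Figure D3:**
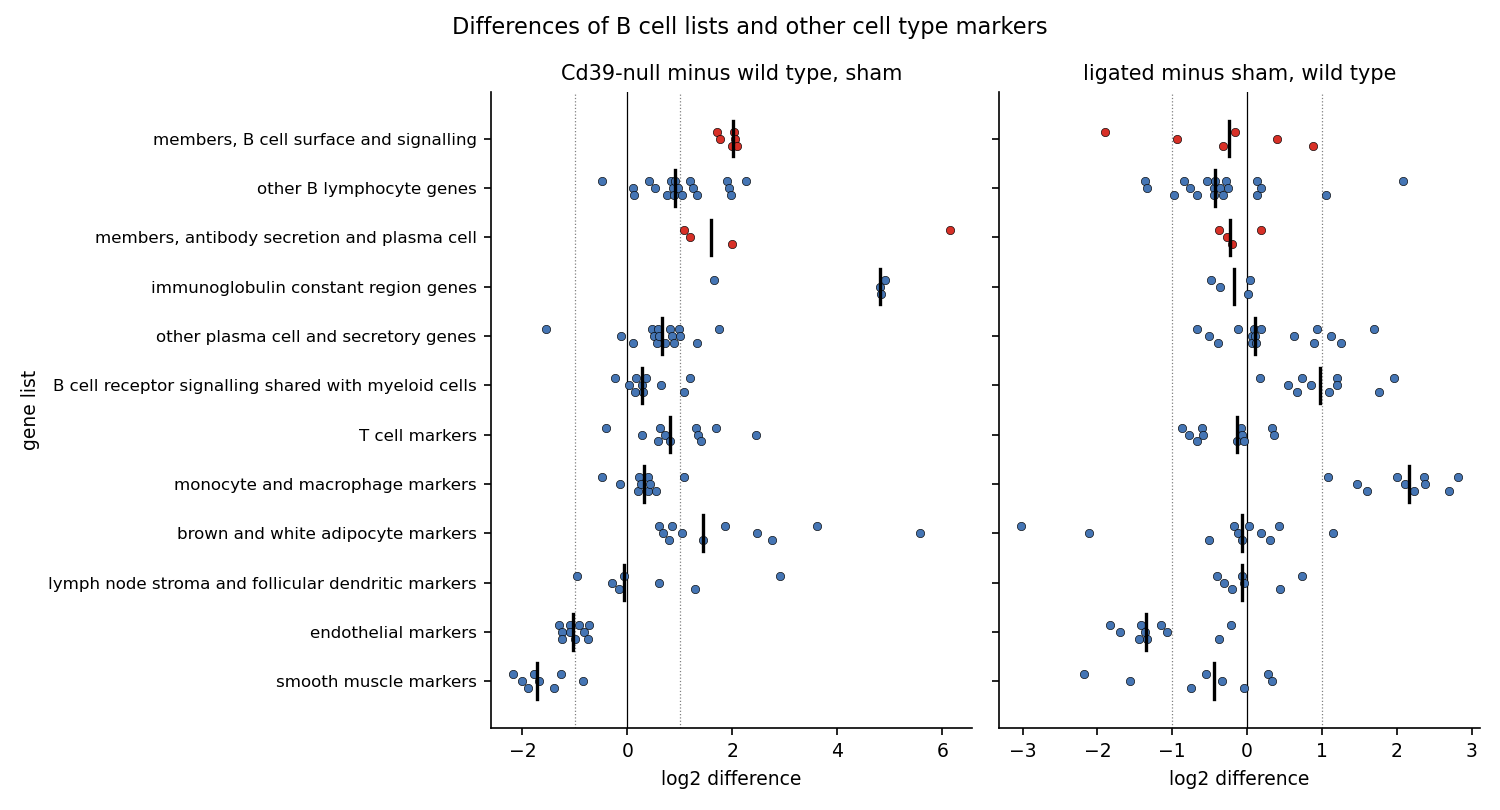
Log2 differences (horizontal axes) of each measured gene in 12 lists (vertical axis), for Cd39-null minus wild type in sham veins on the left and for ligated minus sham in wild type on the right; points are genes of single array pairs, bars are list medians, and dotted lines mark 2-fold. On the left the medians of the 6 surface and signalling genes (2.01), the immunoglobulin list (4.82) and the adipocyte list (1.44) lie to the right of 0, and those of the smooth muscle (-1.72) and endothelial (-1.04) lists to the left.

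The second comparison asked how ligation altered these genes in the wild-type vein. Ms4a1 was 3.75-fold lower after ligation (4.24 to 2.33), at least 2.98-fold with the ligated value set at background, and it was the only one of the 10 genes at least 2-fold lower. Of all genes kept, 3.63% were at least 2-fold lower. The next largest differences were Fcer2a (-0.93) and Blnk (0.87), in opposite directions, and the median of the 10 genes was -0.23 against -0.01 for all genes kept. The 4 secretory genes lay between -0.38 and 0.18; since 3 of them were under background on both wild-type arrays, a further loss could not have been seen.

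Of all genes kept, 50.6% had lower values after wild-type ligation. Of the 19 other B lymphocyte genes 14 did, with a median of -0.43. At least 2-fold lower were Vpreb3 (4.71 to 3.35), which encodes a partner of immunoglobulin chains, and Fcmr (4.25 to 2.92), the IgM Fc receptor. Tnfrsf13c, the receptor for the survival factor BAFF, differed by -0.97 and Bank1 by -0.84. At least 2-fold higher were Cd180 (2.09) and Cd37 (1.06), named here after their values were seen, both of which myeloid cells also carry. Genes of B cell receptor signalling that myeloid cells share were higher in 10 of 10, with a median of 0.97, among them Vav1 (2.44 to 4.40) and Btk (2.80 to 4.56). The median of the monocyte and macrophage markers was 2.17 in the same pair, with a log2 summed signal of 8.93 in sham and 11.1 in ligated veins, and their part in the signalling genes and in Blnk was not tested.

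The third comparison set the ligated array labelled Cd39-null, whose Entpd1 value was at the level of wild type, ligated, beside the Cd39-null sham array. By measured values all 10 genes were 2-fold or more lower on the ligated array, with a median of -2.41. Of all genes kept 5.8% were, and their median was 0.03. Without the filter on mean level, 4.64% of all genes were at least 2-fold lower. In 7 of the 10 genes the ligated value lay under background. With those values raised to background, 8 of the 10 genes and 5.21% of genes kept were at least 2-fold lower, Cd79a and Tnfrsf17 falling short. Jchain was at least 41.7-fold and Ms4a1 at least 11.7-fold lower. The genes above background on both arrays differed by -2.66 (Blnk), -2.22 (Cd79b) and -1.18 (Derl3). This comparison uses the same Cd39-null, sham, array as the first, so its size is tied to that array. Against wild type, sham, in its place, the ligated array labelled Cd39-null had 1 gene at least 2-fold lower (Ms4a1, -1.90) and a median of -0.22.

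Among the other lists in this pair, 13 of 19 other B lymphocyte genes and 4 of 4 immunoglobulin constant region genes were at least 2-fold lower, with medians of -1.43 and -4.27. Bank1 differed by -2.94 and Igkc by -5.32. The B cell receptor signalling genes shared with myeloid cells were higher in 10 of 10 here too (median 1.10), with Inpp5d, a lipid phosphatase of blood cells, at 4.10 in sham and 6.61 in ligated. Plasma cell and secretory genes had no common direction, with 8 of 16 lower. Monocyte and macrophage markers were higher in 10 of 10 (median 1.61), with a log2 summed signal of 9.32 in sham and 11.1 in ligated, while Blnk was lower (-2.66). Adipocyte markers were lower in 11 of 11 (median -2.12), while platelet markers were higher in 8 of 8 (median 3.97) and neutrophil markers in 8 of 11 (median 2.08). The log2 summed signal was 7.93 and 11.3 for platelet markers and 11.4 and 12.1 for neutrophil markers, sham and then ligated. The part of these tissues and cells in the B cell values was not tested.

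The ligation difference in wild type and that between the arrays labelled Cd39-null come from separate arrays and can be set side by side. Ms4a1 was lower in both (-1.91 and -3.89) and was the only one of the 10 genes 2-fold or more lower in both, as were 1.45% of genes kept. Blnk, above background on all 4 arrays, differed in sign (0.87 and -2.66). Cd79a (0.40 and -1.15) and Tnfrsf17 (0.18 and -1.20) also did by measured values, but both were under background in wild type, where a sign carries no information. The difference between these differences was negative for all 10 genes by measured values. It was 2-fold or more in 9, against 5.5% of genes kept in that direction and 4.44% of all genes without the filter. In 6 of the 10 genes 3 of the 4 values behind it lay under background, so its size is not measured there. In the 3 genes above background on all arrays it was -3.53 (Blnk), -2.06 (Cd79b) and -0.98 (Derl3).

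**Figure D4:**
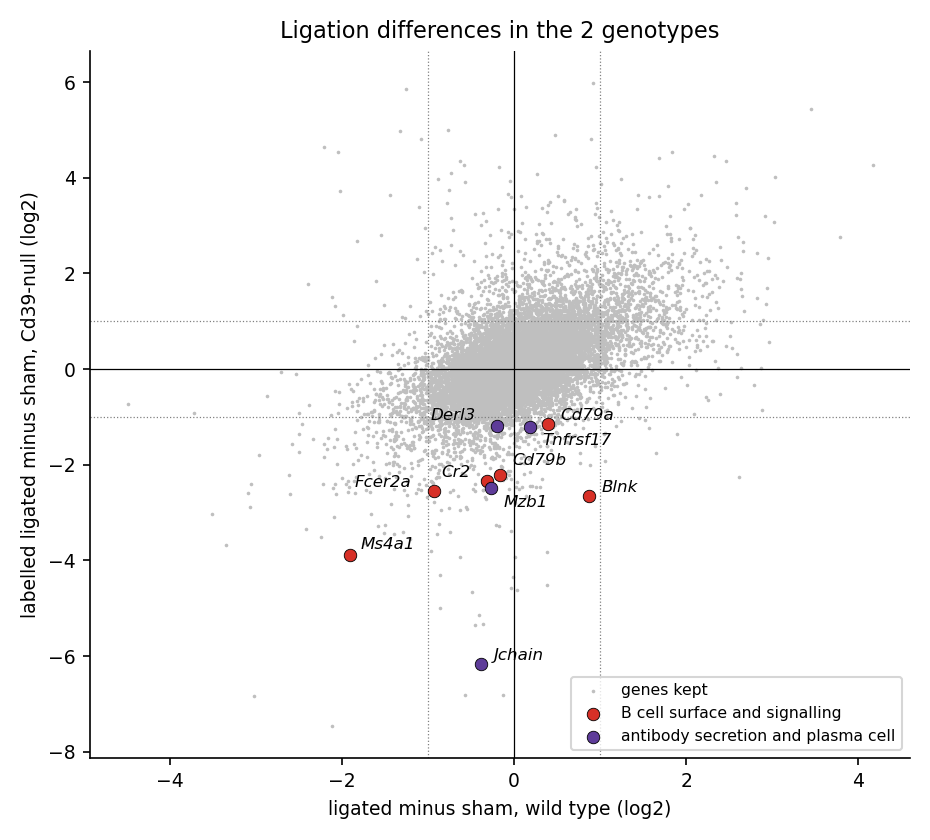
Log2 ligation difference in wild type (horizontal axis) and in Cd39-null, with the ligated array labelled Cd39-null (vertical axis), for the 14115 genes kept (grey) and the 10 genes (coloured by group); each point is 1 gene from single arrays and dotted lines mark 2-fold. All 10 genes lie below -1 on the vertical axis, and on the horizontal axis only Ms4a1, at -1.91, lies below -1.

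The fourth comparison asked how the genotypes differed after ligation. Of the 10 genes 9 were less than 2-fold apart, with a median of 0.04. Most genes kept were too, since 6.27% were at least 2-fold apart in either direction. Among the 10 genes the exception was Blnk, at 4.94 in wild type, ligated, and 3.12 on the ligated array labelled Cd39-null. Its value was 3.52-fold lower there, and 2.66% of genes kept were at least 2-fold lower. Cd79b, above background on both, was at 4.07 and 4.05, and Derl3 at 2.80 and 3.01. For 7 of the 10 genes both ligated values were under background. Neither ligated array thus rose above it for these genes, and a genotype difference below that level could not have been seen. Monocyte and macrophage markers had a median difference of -0.34 on these arrays, with 7 of 10 lower and 3 higher. Mrc1 was 8.07 and 6.72 and Adgre1 7.12 and 5.83, while Cd14 was higher, at 6.00 and 8.13. The log2 of their summed signal was 11.1 on both ligated arrays. The part of these markers' cells in the Blnk value was not tested.

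The only test the design allows is that of limma, fitted with ligation and genotype as additive terms over the 4 arrays. It has 1 residual degree of freedom, which takes unlike responses of the genotypes as error. Its SEs and p-values therefore do not measure spread among mice or repeated arrays. It called 0 of the 14115 genes at a Benjamini-Hochberg adjusted p of 0.05 for either factor (0% of genes). For ligation, 2 of the 10 genes had an unadjusted p under 0.05 in limma, against 21% of all genes. These were Ms4a1 (mean difference -2.90 ± 0.51 SE, limma adjusted p = 0.102, lower in 2 of 2 array pairs) and Fcer2a (-1.74 ± 0.43, adjusted p = 0.142), which was above background on the Cd39-null, sham, array alone. For genotype, 1 of the 10 genes had an unadjusted p under 0.05 in limma, against 6.94% of all genes, and it was Cd79a (1.28 ± 0.42, adjusted p = 0.689), also above background on that array alone and, like Fcer2a, kept by the filter only through it. Jchain, with a mean genotype difference of 3.26 ± 1.35, had a limma adjusted p of 0.739, and its ligated values were both under background.

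Genes nearest to the mean profile of each group of members were sought among all other genes kept. The measure was the Euclidean distance of mean-centred log2 profiles over the 4 arrays. Relative to their mean, the 6 surface and signalling genes averaged -0.27 (sham) and -0.61 (ligated) in wild type, 1.67 in Cd39-null sham veins and -0.79 on the ligated array labelled Cd39-null. Nearest was Cd22 (distance 0.05), followed by the glycogen synthase Gys2 (0.14), the fatty acid oxidation enzyme Acadm (0.25), Pcp4 (0.27), Ighm (0.28), the mitochondrial enzyme subunit Sucla2 (0.29), the adipocyte gene Adig (0.29) and the fatty acid elongase Elovl6 (0.31). The 4 secretory genes averaged -0.57, -0.73, 2.03 and -0.73 in the same order. Jchain weighs most in this average, since its lead over the next array was 6.15 log2, against 1.99 (Mzb1), 1.18 (Derl3) and 0.89 (Tnfrsf17). Nearest to this average were Eaf2 (0.25), a kappa variable gene (0.30), the B cell class II gene H2-Ob (0.32) and Glycam1 (0.36). Next came the leptin gene Lep (0.36), the brown fat gene Cidea (0.38), the fatty acid oxidation enzyme Hadhb (0.40) and Elovl6 (0.44). Both sets thus held lymphoid genes beside genes of fat and mitochondria, and with 4 arrays many genes can share a profile in which 1 array stands apart. Gys2, Eaf2, the kappa variable gene and Cidea were above background on the Cd39-null, sham, array alone, so their likeness on the other arrays carries no information. Every distance named was under 0.513, the members' median moderated SD in limma, so the order of the names is not firm.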

How the data were processed

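Expression in the inferior vena cava was measured on 4 Affymetrix arrays, 1 for each group, with RNA of 4 mice pooled per array per the labels and the series' design text. The authors deposited expression on a log2 scale for each probe set, from RMA in oligo per the submitters' processing notes. Neither a version nor a genome build is stated in the sources used here. RMA quantile normalises arrays, so a global shift in RNA content would be hidden. Values were used as deposited. Precision is limited by having 1 array a group.

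Of 35556 probe sets, 21218 carry 1 gene symbol in the platform annotation, 1881 several and 12457 none; of the 21218, 21185 matched RefSeq GRCm38.p6 by Entrez identifier. The brightest probe set per gene was taken, giving 18820 genes. Genes with a mean log2 at or above the 25th percentile (2.29) were kept, 14115 in all. All 10 members passed, but 4 of them (Cd79a, Cr2, Fcer2a and Jchain) only through the Cd39-null, sham, array, so the members are described whether kept or not. Without the filter, 2.35% of all 18820 genes were at least 2-fold higher in Cd39-null, sham, than in wild type, sham, 4.64% at least 2-fold lower on the ligated array labelled Cd39-null than in Cd39-null, sham, and 1.07% at least 2-fold above each other array.

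Differences are between single arrays, without p-values, and counted at 2-fold on the measured values unless values are said to be raised to background. A fold given for 1 gene as at least a value sets the lower array at its olfactory receptor background where it lay under it. The additive model was fitted with limma 3.58.1 in R 4.3.3 (lmFit and eBayes, prior of 3.67 degrees of freedom) and tested on simulated data. Lists cover all their measured genes. From a list, up to 4 genes with the largest mean ligation or genotype difference could be named, exceptions being stated; 8 nearest profiles were named, predicted and RIKEN genes left out. The members and lists were chosen with earlier results of these data known. Alternatives were other scalings, probe set rules, filters, fold thresholds, references and fits.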

Additional observations from a re-analysis of the deposited data

Results flagged for a closer look

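In 3 genes the ligation difference had opposite signs in the genotypes, each from 1 array pair. These were Cd79a (0.40 in wild type, -1.15 in Cd39-null), Blnk (0.87 and -2.66) and Tnfrsf17 (0.18 and -1.20). In 4 genes the genotype difference had opposite signs in the surgeries: Cd79b (2.04 in sham, -0.019 in ligated veins), Blnk (1.72 and -1.82), Mzb1 (1.99 and -0.23) and Tnfrsf17 (1.07 and -0.31). Of these, Blnk alone was at least 1.5-fold apart in each direction, and the other genes had 1 difference close to 0. Cd79a and Tnfrsf17 were under background on both wild-type arrays, and Mzb1 and Tnfrsf17 on both ligated arrays, so those signs carry no information. None of these differences between groups was tested. All rest on the ligated array labelled Cd39-null, whose Entpd1 value (6.14) goes against its label.

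Probe sets that the annotation gives to several genes entered no gene comparison. The 16 immunoglobulin probe sets among them had a median difference of 4.59 log2 between Cd39-null, sham, and wild type, sham, and 16 of 16 were at least 2-fold above each other array, also with values under background raised to it.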

How the results depend on the processing

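Quantile normalisation, cyclic loess, subtraction of array medians, the mean of a gene's probe sets and no filter kept the number of the 10 genes called in each of the 5 array comparisons within 1.5 times and moved each median by less than 0.513 log2, the members' median moderated SD in limma; the median of all genes moved by less than 0.1 under each scaling. Raising values under background, an alternative added after seeing the data, gave 8 (genotype, sham), 8 (ligation, Cd39-null) and 7 (above each other array) genes. Under the 50th percentile filter 7 of the 10 genes were left out, Ms4a1, Cd79b and Blnk staying, so the counts became 3 (genotype, sham), 3 (ligation, Cd39-null), 3 (difference of the ligation differences) and 2 (at least 2-fold above each other array, a rule added after seeing the data). At 1.5-fold, 2 genes were lower after ligation in wild type, Fcer2a joining Ms4a1. With wild type, sham, as its reference, the ligated array labelled Cd39-null had 1 gene at least 2-fold lower and a median of -0.22. Limma called 0 of the 10 genes at an adjusted p of 0.05 under each alternative; the unadjusted counts were 2 for ligation and 1 for genotype in the reported fit. Without the ligated array labelled Cd39-null, which leaves 1 pair and no test, the median ligation difference of the 10 genes was -0.23 in place of -1.26 and the median genotype difference 1.99 in place of 0.98. No paired analysis was possible because each group has 1 array. Signal near background limits Cd79a, Cr2, Fcer2a, Mzb1, Jchain and Tnfrsf17, whose values on the 3 arrays other than Cd39-null, sham, lay under it. It also limits Derl3, which was above background but close to it on the wild-type arrays.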

Other observations

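Genes of B cell survival and homing went in several directions. Of 10 measured, the chemokine Cxcl13 was at least 2-fold higher in Cd39-null, sham, than in wild type, sham (8.28 against 6.98), and S1pr1, a receptor that guides lymphocytes out of tissue and is also made by endothelium, at least 2-fold lower (log2 difference -1.18); S1pr1 is named after its values were seen. Ccr6, a chemokine receptor of B cells, was above background on the Cd39-null, sham, array alone (3.27) and at least 1.25-fold above wild type, sham. Cxcl12, which retains B cells and plasma cells through the receptor CXCR4, was 6.75 (sham) and 7.37 (ligated) in wild type, 5.95 in Cd39-null sham veins and 6.21 on the ligated array labelled Cd39-null. Its receptor Cxcr4 was 6.30, 6.48, 7.11 and 8.26, highest on the ligated array labelled Cd39-null, where the B cell genes were low; neutrophils and other blood cells carry it too. The plasma cell regulator Irf4 was 2.76, 2.25, 3.32 and 1.74, and was above background on the Cd39-null, sham, array alone.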
